A study of Homo sapiens with 24 samples.

Results

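SLFN11 (Schlafen family member 11) was followed across 4 human small-cell lung cancer lines and across treatment with lurbinectedin. It is 1 of 16796 genes listed in at least 1 of 5 deposited tables and was chosen by its symbol. The lines were H187 and H209, named ISL1 high by the study's design, and H82 and SHP-77, named ISL1 low after a LIM homeodomain transcription factor. Each line received 0.1 nM lurbinectedin, an alkylating drug that binds guanine in DNA and is given for small-cell lung cancer, or the solvent DMSO, for 24 h. Total RNA was sequenced after depletion of ribosomal RNA from 3 biological replicates per group, which gave 24 libraries in 8 groups. Cells of all groups were kept in RPMI-1640 medium with serum, and no line carried an engineered allele in the labels. SLFN11 is listed in the tables of H187 and H209 and in the table that sets the ISL1-high against the ISL1-low lines under lurbinectedin. It is not listed in the line tables of H82 and SHP-77, so their DMSO libraries were not analysed here for this gene. The lines are fixed, so a difference between classes holds for these 4 lines.

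SLFN11 encodes a helicase-like nuclease that is recruited to stressed replication forks through RPA-coated single-stranded DNA, opens chromatin there and blocks fork progression. It also cleaves transfer RNAs. Cells that express it are more readily killed by drugs that damage DNA during replication, and small-cell lung cancers often lose it through promoter methylation or EZH2-dependent silencing. The gene is interferon-inducible in several cell types, and ETS factors such as FLI1 activate it in Ewing sarcoma. The other listed family members were SLFN5, which has a helicase-like domain of its own, and SLFN13, a nuclease that cleaves transfer and ribosomal RNA.

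In the deposited gene model (hg38), SLFN11 lies on the minus strand of chromosome 17 from 35350310 to 35373701. It spans 23.4 kb and has 5276 exonic bases in 7 exon blocks. The promoter is shown because the gene was either well expressed or at 0 counts in a line. It covers 250 bases before and 50 bases after the RefSeq start (GRCh38.p14, chr17:35373572-35373871, minus strand). Capitals mark a CCAAT box, which reads ATTGG on this strand and begins 86 bases before the start, and a TATATAA element that begins 31 bases before it. The deposited model begins further upstream than the RefSeq start. Its first exon block runs from 35373474 to 35373701, so the TATATAA element lies inside that block.
SLFN11 promoter: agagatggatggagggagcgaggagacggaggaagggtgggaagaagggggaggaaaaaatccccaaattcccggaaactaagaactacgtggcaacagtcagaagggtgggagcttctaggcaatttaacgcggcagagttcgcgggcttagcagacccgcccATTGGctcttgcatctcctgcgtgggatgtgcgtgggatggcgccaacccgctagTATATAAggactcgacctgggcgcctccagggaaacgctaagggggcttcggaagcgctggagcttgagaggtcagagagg

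The window holds 18 CpG pairs, where the median of 35116 RefSeq promoters was 14, and its GC content was 58.0%, where the median was 58.7%. Motifs were searched on both strands, and they did not overlap one another. CCAAT was found in 34.6% of all promoters and TATATAA in 2.57%. TTCNNNGAA, the GAS element of interferon-gamma signalling, had 1 match in SLFN11 and was found in 7.66% of promoters. The core of the interferon response element, ISRE (3.57% of promoters), CCGGAAG, an ETS site (10.3%), and TTTCGCGC, an E2F site (0.515%), had no match in these letters. The shorter run CCGGAA, followed by A, does lie in the window, within the GAS match. Looser ETS patterns were not searched, so the absence holds for the exact letters only.

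In H187, SLFN11 stood at 92.6, 94.6 and 96.6 CPM (counts scaled to TMM-adjusted library size) under lurbinectedin, against 66.4, 68.2 and 71.2 CPM under DMSO. Every treated library was above every DMSO library. The means were 94.6 ± 2.01 CPM under lurbinectedin and 68.6 ± 2.42 CPM under DMSO (SD, n = 3 each). SLFN11 rose by 0.46 ± 0.04 on the log2 scale (SE, adjusted p = 9.96e-08), or 37.9% in mean level. Among all genes in this comparison 24.9% of 14023 genes passed an adjusted p of 0.05, with 12.2% higher and 12.7% lower.

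In H209, SLFN11 stood at 177, 173 and 174 CPM under lurbinectedin, against 155, 154 and 143 CPM under DMSO. The groups did not overlap here either. The means were 174 ± 2.18 CPM under lurbinectedin and 151 ± 6.42 CPM under DMSO (SD, n = 3 each). It rose by 0.21 ± 0.03 on the log2 scale (adjusted p = 1.3e-06), or 15.6%, in a line where 45.2% of 14421 genes passed, 22.7% higher and 22.5% lower. These values come from cultures as a whole, in which more cells expressing the gene and more RNA per cell cannot be told apart.

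**Figure D1:**
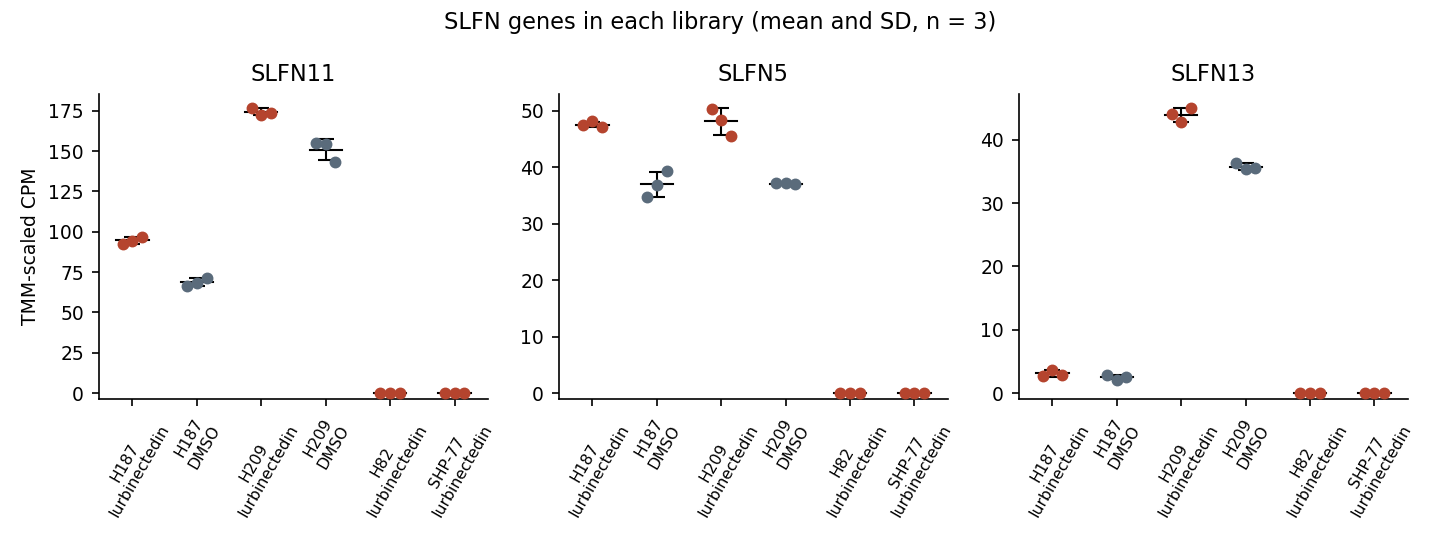
CPM of SLFN11, SLFN5 and SLFN13 in each library (points), with the mean and SD of 3 replicates (black), for lurbinectedin (red) and DMSO (grey). H187 and H209 values are scaled within their own line table and H82 and SHP-77 values within the class table. SLFN11 lay at 92.6 to 96.6 CPM under lurbinectedin in H187 and at 0 in all H82 and SHP-77 libraries.

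The rise was larger on the log2 scale in H187 than in H209. The response in H209 minus that in H187 was -0.25 ± 0.05 (SE; 95% interval -0.36 to -0.14; adjusted p = 0.0023), tested as an interaction in 1 fit of the 12 libraries of both lines. Here 10.4% of 13042 genes passed, 5.93% higher and 4.42%, like SLFN11, lower. In CPM the difference between means was 23.5 ± 3.92 in H209 and 26.0 ± 1.82 in H187 (SE), each on the scaling of its own table, with no test between them. H209 also started from the higher level.

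Among all genes, 3.04% in H187 (426 genes) and 19.1% in H209 (2761 genes) had a larger log2 fold change than SLFN11. Set beside genes whose DMSO level lay within 2-fold of its own, these shares were 0.622% of 4502 genes in H187 and 7.47% of 2930 genes in H209. Long genes had lower fold changes in both lines. Genes that span 300 kb or more had a median log2 fold change of -0.40 in H187 (568 genes) and -0.44 in H209 (546 genes). Those of 10 to 50 kb, the range that holds SLFN11, had a median of 0.04 in both lines (5781 and 6012 genes).

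SLFN5, on the other side of the cluster from SLFN13 (chromosome 17, 35243036 to 35273654, plus strand), was at 47.4, 48.1 and 47.1 CPM under lurbinectedin in H187, against 34.8, 36.8 and 39.2 CPM under DMSO. In H209 it was at 50.3, 48.4 and 45.5 CPM under lurbinectedin, against 37.1, 37.1 and 37.0 CPM under DMSO. The groups did not overlap in either line. SLFN5 rose by a log2 fold change of 0.36 ± 0.05 in H187 (adjusted p = 1.6e-05) and 0.38 ± 0.04 in H209 (adjusted p = 2.0e-09). No difference between these responses was detected (H209 minus H187 0.02, 95% interval -0.12 to 0.16, adjusted p = 0.91).

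SLFN13 (35435096 to 35448837, minus strand) was scarce in H187, at 2.74, 3.69 and 2.94 CPM under lurbinectedin, against 2.86, 2.16 and 2.59 CPM under DMSO. These groups overlapped, and the log2 fold change of 0.30 ± 0.17 did not pass (adjusted p = 0.22). In H209 it was at 44.1, 42.8 and 45.0 CPM under lurbinectedin, against 36.3, 35.4 and 35.6 CPM under DMSO. There it rose without overlap by 0.30 ± 0.04 (adjusted p = 3.0e-07). The difference in response was 0.00 with a 95% interval of -0.36 to 0.37 (adjusted p = 1.00), which is wide because of the low counts in H187. Of 6 family members looked for, SLFN12, SLFN12L and SLFN14 were not listed in any table.

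**Figure D2:**
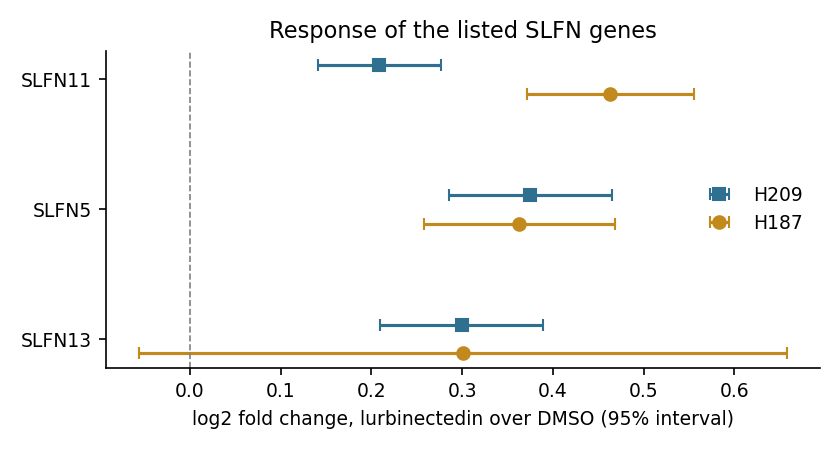
Log2 fold change of SLFN11, SLFN5 and SLFN13, lurbinectedin over DMSO, with its 95% interval, in H209 (squares) and H187 (circles). SLFN11 was at 0.21 in H209 and 0.46 in H187, while SLFN5 was at 0.38 in H209 and 0.36 in H187.

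Per kb of exon, which allows levels of different genes to be set side by side, SLFN11 was the most abundant of the 3 genes in both lines. In H187 it averaged 17.9 CPM per kb under lurbinectedin and 13.0 under DMSO, where SLFN5 had 4.49 and 3.49 and SLFN13 0.369 and 0.299. In H209 it averaged 33.0 CPM per kb under lurbinectedin and 28.6 under DMSO, where SLFN5 had 4.54 and 3.50 and SLFN13 5.19 and 4.22. Of 6370 windows of 50 bases in the SLFN11 transcripts (GENCODE), 617, or 9.69%, also occur in SLFN13 transcripts, 35 in SLFN12L and 0 in SLFN5. How reads that fit both genes were assigned is not given in the sources used here, so the split between SLFN11 and SLFN13 is uncertain. In H187 under lurbinectedin SLFN11 averaged 94.6 CPM and SLFN13 3.12 CPM. A small share of SLFN11 reads could therefore make up much of the SLFN13 level in H187, which was not tested.

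The ISL1-high lines differed from each other in SLFN11. Its level in H187 minus that in H209 was -1.06 ± 0.04 on the log2 scale under DMSO (adjusted p = 1.8e-21) and -0.79 ± 0.04 under lurbinectedin (adjusted p = 1.2e-22). Such differences were common between these lines, with 85.7% of 13042 genes past the threshold under DMSO and 87.0% of 14463 under lurbinectedin. SLFN13 was further apart, at -3.73 under DMSO and -3.72 under lurbinectedin. For SLFN5 no difference was detected, at 0.07 under both conditions (adjusted p = 0.18 under DMSO and 0.17 under lurbinectedin; 95% intervals -0.03 to 0.17 for each).

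Under lurbinectedin the ISL1-high and ISL1-low lines were separated by the presence of SLFN11 reads. On the scaling of the class table, SLFN11 was at 92.4, 94.5 and 97.1 CPM in H187 and at 166, 162 and 164 CPM in H209, against 0 counts in each of the 3 H82 and 3 SHP-77 libraries. A count of 0 in a library allows up to 3 counts, which is 0.0891 to 0.113 CPM at these depths, and covers counting error only. SLFN11 was therefore at least 870-fold higher in H187 than in H82, at least 841-fold higher in H187 than in SHP-77, at least 1510-fold higher in H209 than in H82 and at least 1460-fold higher in H209 than in SHP-77, taking 3 counts per library as the floor. The class difference passed (adjusted p = 6.8e-51), as it did for 88.9% of 14463 genes, with 47.0% of all genes tested called higher. The order of the lines was H209, then H187, then H82 and SHP-77, which cannot be placed relative to each other.

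SLFN5 and SLFN13 were near 0 in the same libraries. SLFN5 was at 47.3, 48.0 and 47.3 CPM in H187 and 47.3, 45.5 and 43.0 CPM in H209, against 1 count in the 3 H82 libraries together and 6 counts in the 3 SHP-77 libraries. Its ratio to H82, which rests on that 1 count, was 4108 in H187 with a counting interval of 737 to 162271, and to SHP-77 it was 714 in H187 (328 to 1946). SLFN13 averaged 3.12 CPM in H187 and 41.4 CPM in H209, against 0 counts in H82 and 2 counts in SHP-77. It was at least 28.7-fold higher in H187 and at least 381-fold higher in H209 than in H82. Its ratio to SHP-77 was 141 in H187 (counting interval 38.9 to 1162).

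Genes on either side of the SLFN cluster were expressed in all 4 lines under lurbinectedin. Within 250 kb of SLFN11 these include RAD51D and NLE1 beyond SLFN5, and LINC02001 and AP2B1 beyond SLFN13. RAD51D, a homologous recombination factor 230 kb away, averaged 16.2 CPM (H187) and 14.1 CPM (H209), against 6.11 CPM (H82) and 15.6 CPM (SHP-77). NLE1, a ribosome assembly factor, averaged 32.8 CPM (H187) and 31.4 CPM (H209), against 64.5 CPM (H82) and 33.5 CPM (SHP-77). AP2B1, a clathrin adaptor subunit, averaged 360 CPM (H187) and 532 CPM (H209), against 530 CPM (H82) and 447 CPM (SHP-77). LINC02001, a non-coding RNA, lay between 6.69 and 13.1 CPM in all 4 lines. Among the genes given here, then, those at or near 0 in H82 and SHP-77 were the 3 SLFN genes.

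Some neighbours of the cluster also changed under the drug. RAD51D rose by 0.28 ± 0.07 in H187 (adjusted p = 0.0063) and had 0.23 ± 0.07 in H209 (adjusted p = 0.0086, and 0.054 without lurbinectedin replicate 2). NLE1 was at 0.10 in H187 (adjusted p = 0.20) and rose by 0.25 ± 0.05 in H209 (adjusted p = 9.2e-05). AP2B1 fell by 0.17 on the log2 scale in H187 (adjusted p = 0.0017) and had -0.09 in H209 (adjusted p = 0.0066, and 0.084 without lurbinectedin replicate 1). LINC02001, at 0.01 in H187 and 0.18 in H209, passed in neither line (adjusted p = 0.97 and 0.082).

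**Figure D3:**
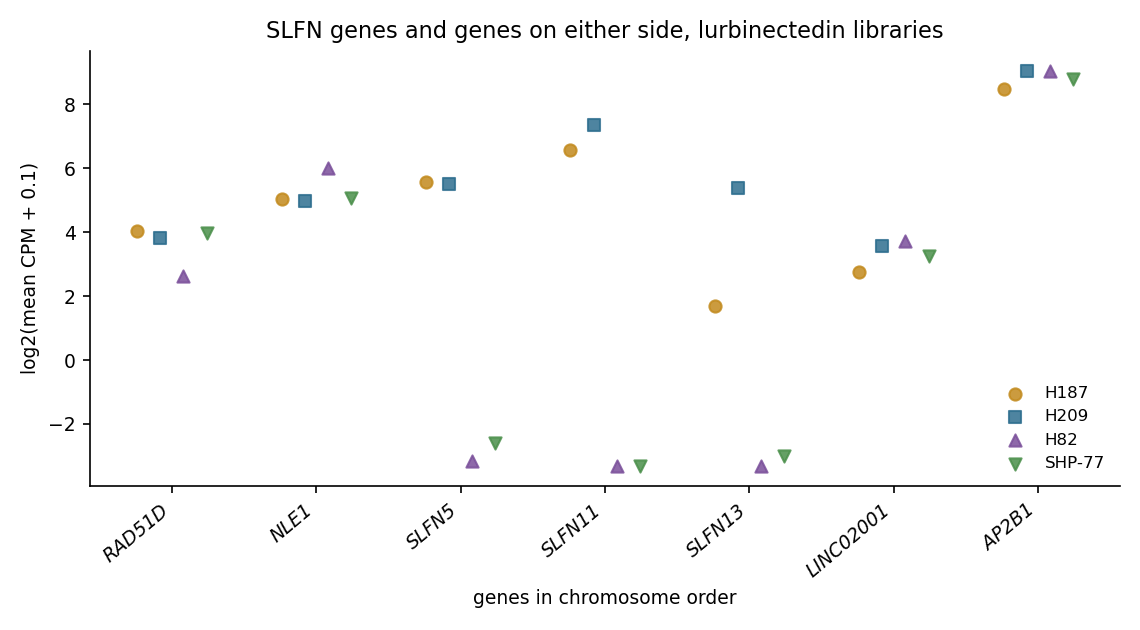
Mean level under lurbinectedin, as log2(CPM + 0.1), of RAD51D, NLE1, SLFN5, SLFN11, SLFN13, LINC02001 and AP2B1, in chromosome order, in H187, H209, H82 and SHP-77 (3 libraries each). SLFN11 lies at the floor of the axis in H82 and SHP-77 with SLFN5 and SLFN13 at or just above it, and the genes on both sides lie well above it.

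Regulators named for SLFN11 in other settings did not share one pattern over the lines. FLI1, the ETS factor that activates SLFN11 in Ewing sarcoma, averaged 6.62 CPM (H187) and 85.7 CPM (H209), against 0.0114 CPM (H82) and 0.997 CPM (SHP-77). ETS1, a related factor, averaged 0.226 CPM (H187) and 77.7 CPM (H209), against 68.0 CPM (H82) and 109 CPM (SHP-77). EZH2, the methyltransferase of the PRC2 complex, averaged 130 CPM (H187) and 152 CPM (H209), against 106 CPM (H82) and 59.2 CPM (SHP-77). DNMT1, which maintains DNA methylation, averaged 234 CPM (H187) and 317 CPM (H209), against 364 CPM (H82) and 402 CPM (SHP-77).

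Of 10 PRC2, HDAC and DNA methylation regulators, 3 rose and 0 fell in H187, and 3 rose and 1 fell in H209, with a median of 0.10 in H187 and 0.07 in H209, where the median of all genes was 0.00 in both lines. All genes passed at 12.2% higher and 12.7% lower in H187 and at 22.7% higher and 22.5% lower in H209, so the 3 of 10 higher in H209 lie near the background. These 3 became 2 without DMSO replicate 1 or lurbinectedin replicate 1, where SUZ12 (0.09) lost its call (adjusted p = 0.071 and 0.086). DNMT3B was newly called higher without lurbinectedin replicate 2, and EED without lurbinectedin replicate 3. DNMT1 rose by 0.21 ± 0.05 in H187 (adjusted p = 0.0014) and by 0.18 ± 0.03 in H209 (adjusted p = 1.7e-06). EZH2 rose in H209, to 162 CPM under lurbinectedin against 121 CPM under DMSO (0.42 ± 0.03, adjusted p = 1.1e-14). In H187 it had 0.14 ± 0.05 (adjusted p = 0.024) and missed the threshold without DMSO replicate 2 or 3 or without lurbinectedin replicate 1 or 3 (adjusted p = 0.065, 0.066, 0.067 and 0.10). The EZH2 response was larger in H209 by 0.28 ± 0.05 (adjusted p = 0.00058), and whether it bears on SLFN11 was not tested. HDAC1, a histone deacetylase, fell by 0.21 on the log2 scale in H209 (adjusted p = 8.3e-07) and had 0.09 in H187 (adjusted p = 0.13).

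Of the ETS and interferon-pathway regulators, 3 of 17 rose and 1 fell in H187, and 6 of 18 rose and 2 fell in H209 (median 0.07 in H187 and 0.08 in H209). Over all genes 12.2% rose and 12.7% fell in H187, and 22.7% rose and 22.5% fell in H209. IRF1, an interferon-induced transcription factor, rose to 22.6 CPM under lurbinectedin against 15.5 CPM under DMSO in H187 (0.55 ± 0.08, adjusted p = 2.5e-05). In H209 it rose to 16.4 CPM under lurbinectedin against 8.72 CPM under DMSO (0.92 ± 0.08, adjusted p = 1.5e-13). FLI1 fell by 0.38 on the log2 scale in H209 (adjusted p = 1.5e-12), and whether it bears on SLFN11 was not tested. Its -0.36 in H187 passed (adjusted p = 0.015) but not without DMSO replicate 1 or without lurbinectedin replicate 2 (adjusted p = 0.092 and 0.054). ETS1 rose in H209 by 0.49 ± 0.04 (adjusted p = 4.6e-15) and is not listed for H187. IFNAR2, a chain of the type I interferon receptor, rose in H187 by 0.31 ± 0.05 (adjusted p = 0.00015) and had 0.13 in H209 (adjusted p = 0.11).

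Some interferon-stimulated genes rose in each line and none fell past the threshold. In H187, 10 of 19 tested rose and 0 fell (median 0.28), and in H209, 8 of 21 rose and 0 fell (median 0.23), where IFIT2 was called lower without DMSO replicate 3. With 1 library left out, 8 or 9 of the 10 rises were kept in H187 and 6 or 7 of the 8 in H209. The fewest were kept without DMSO replicate 1 in H187 and without lurbinectedin replicate 2 in H209. The calls lost in some fit were IFITM3 and MX1 in H187 and IFIH1, USP18 and RSAD2 in H209. The shares over all genes were 12.2% higher and 12.7% lower in H187 and 22.7% higher and 22.5% lower in H209. OAS3, an antiviral oligoadenylate synthetase, rose to 25.6 CPM under lurbinectedin against 14.8 CPM under DMSO in H187 (0.79 ± 0.06, adjusted p = 7.2e-09) and by 0.36 ± 0.09 in H209 (adjusted p = 0.00075). CMPK2, a mitochondrial nucleotide kinase, rose by 0.39 ± 0.07 in H187 and 0.40 ± 0.10 in H209 (adjusted p = 0.00046 and 0.00060), and PARP14, a mono-ADP-ribosyltransferase, by 0.27 ± 0.05 in H187 and 0.23 ± 0.05 in H209 (adjusted p = 0.00027 and 0.00017). HERC5, the ligase for ISG15, rose in H187 by 0.47 ± 0.09 (adjusted p = 0.00078) and had 0.32 in H209 (adjusted p = 0.17). In H209 ISG20, an exonuclease, rose by 1.11 ± 0.19 and MX1, an antiviral GTPase, by 0.60 ± 0.11 (adjusted p = 5.9e-06 and 7.2e-06). In H187 ISG20 had -0.01 (adjusted p = 0.98), and MX1 had 0.34 (adjusted p = 0.036), a call lost without any 1 of 5 of the 6 libraries (highest adjusted p = 0.11). In the response difference H209 minus H187, 1 of 18 was higher and 3 were lower, where 5.93% of all genes were higher and 4.42% lower. The lower ones were OAS3 (-0.42), IFIT5 (-0.37) and EIF2AK2 (-0.18), and the higher one was ISG20 (1.13).

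In the class comparison, 16 of 22 interferon-stimulated genes were called higher and 2 lower in the ISL1-high lines. Of all 14463 genes, 6798 were higher and 6060 lower. Several interferon-stimulated genes were expressed in SHP-77, where SLFN11 was at 0, and others were lower there. HERC5 averaged 9.91 CPM (H187) and 2.13 CPM (H209), against 0.245 CPM (H82) and 0 CPM (SHP-77). Under lurbinectedin USP18, which removes ISG15 from proteins, averaged 24.2 CPM (H187) and 49.8 CPM (H209), against 0.0233 CPM (H82) and 64.9 CPM (SHP-77). PARP14 averaged 62.3 CPM (H187) and 34.2 CPM (H209), against 2.09 CPM (H82) and 46.5 CPM (SHP-77). Of 22 interferon-stimulated genes in the class table, 0 were below 0.1 CPM in either ISL1-high line, against 11 in H82 and 1 in SHP-77. That threshold was set after the values were seen, and the share of all genes below it was not computed. Of 33 such genes looked for, 22 are listed in the class table, whose smallest row sum was 125 counts. A gene can be listed through its H187 and H209 counts alone, so the 0 in those lines depends in part on the listing.

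**Figure D4:**
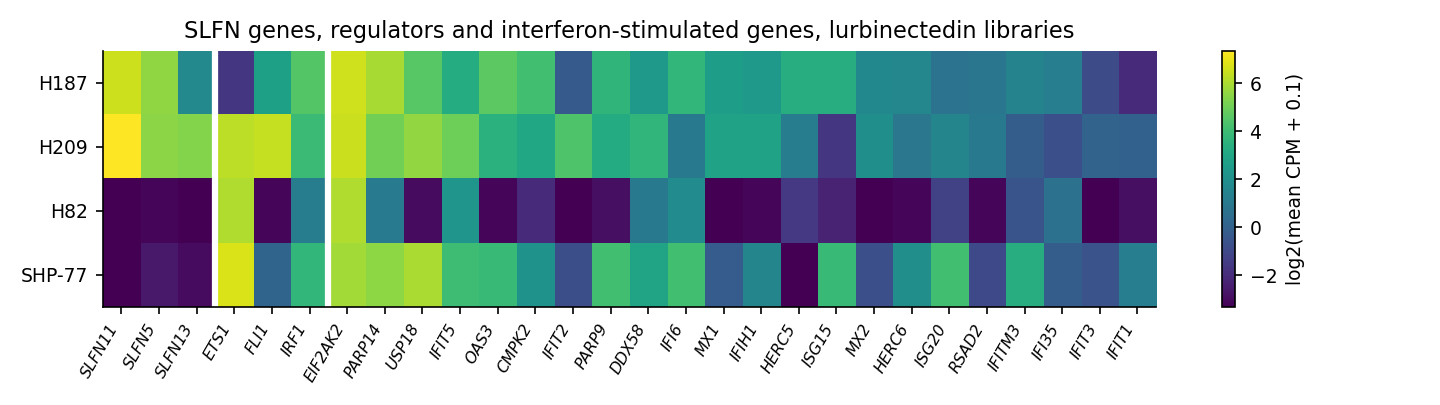
Mean level under lurbinectedin, as log2(CPM + 0.1), of the SLFN genes, the regulators ETS1, FLI1 and IRF1, and 22 interferon-stimulated genes in each line (3 libraries each), to be read down a column since CPM is not corrected for gene length. Yellow is high and dark violet is low, with SLFN11 at the floor in H82 and SHP-77 and many interferon-stimulated genes at the floor in H82 but not in SHP-77. The 22 genes are those of the list that the class table holds, and the share of all genes at the floor was not computed.

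SLFN11 partners and replication-stress factors were followed as a list of 17. In H187, 7 rose and 2 fell, and in H209, 8 rose and 3 fell (median 0.12 in H187 and 0.09 in H209). Among all genes 12.2% were called higher and 12.7% lower in H187, and 22.7% higher and 22.5% lower in H209. The 2 lower in H187 were CUL4B, a ubiquitin ligase scaffold, and WEE1, a checkpoint kinase, each at -0.12 (adjusted p = 0.032 and 0.045). Neither passed without DMSO replicate 3 (adjusted p = 0.057 and 0.064), without lurbinectedin replicate 3 (0.14 and 0.16) or with a correction for GC content, and 1 of them passed without each of the other 4 libraries. CDT1, the licensing factor that SLFN11 helps to degrade, rose to 141 CPM under lurbinectedin against 92.2 CPM under DMSO in H187 (0.62 ± 0.04, adjusted p = 1.7e-09). In H209 it rose to 248 CPM under lurbinectedin against 140 CPM under DMSO (0.82 ± 0.03, adjusted p = 2.4e-24). CLSPN, the adaptor of the ATR-CHEK1 checkpoint, rose by 0.51 ± 0.04 in H187 and 0.40 ± 0.03 in H209 (adjusted p = 2.2e-08 and 3.3e-15). RPA2, a subunit of the single-strand binding complex that SLFN11 binds, rose by 0.35 ± 0.05 in H187 and 0.29 ± 0.04 in H209 (adjusted p = 9.8e-06 and 1.3e-07). MCM3, a subunit of the replicative helicase, rose by 0.29 ± 0.04 in H187 and 0.31 ± 0.03 in H209 (adjusted p = 1.3e-05 and 2.4e-12), and the kinase CHEK1 by 0.22 ± 0.04 in H187 and 0.35 ± 0.04 in H209 (adjusted p = 0.00090 and 2.6e-11).

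Of 8 drug targets and repair genes, 3 rose and 3 fell in H187 and 3 rose and 5 fell in H209, where the shares of all genes were 12.2% higher and 12.7% lower in H187 and 22.7% higher and 22.5% lower in H209. The 3 falls in H187 became 2 without DMSO replicate 2 or without any 1 lurbinectedin replicate, which ended the call of TOP1 (highest adjusted p = 0.10). TOP1 also missed the threshold with the replicate block. The 5 falls in H209 became 3 without DMSO replicate 2, lurbinectedin replicate 1 or lurbinectedin replicate 2, each of which ended the calls of MGMT and ATM. They became 4 without DMSO replicate 3 or lurbinectedin replicate 3, where ATM lost its call (adjusted p = 0.099 and 0.058). BRCA1 and BRCA2 of homologous recombination rose in both lines, by 0.39 and 0.50 in H187 and by 0.52 and 0.72 in H209 (adjusted p = 7.4e-07 or less). TOP2A, a topoisomerase of dividing cells, fell by 0.20 in H187 and 0.46 in H209 on the log2 scale (adjusted p = 4.0e-05 and 9.1e-21). Of 12 genes of transcription-coupled nucleotide excision repair, 3 rose and 1 fell in H187 (all genes 12.2% higher and 12.7% lower) and 5 rose and 0 fell in H209 (all genes 22.7% higher and 22.5% lower). DDB2, a damage sensor, rose by 0.43 ± 0.06 in H187 and 0.44 ± 0.06 in H209 (adjusted p = 8.1e-06 and 6.9e-08). Of the 4 calls in H187, 2, 1, 2 and 2 were kept without DMSO replicate 1, DMSO replicate 3, lurbinectedin replicate 1 and lurbinectedin replicate 3, and the 1 fall, ERCC8, was lost without each of these. Of the 5 rises in H209, 3 were kept without DMSO replicate 2, DMSO replicate 3, lurbinectedin replicate 1 or lurbinectedin replicate 2. Without DMSO replicate 1 or lurbinectedin replicate 3, 4 were kept. ERCC5 lost its call in each of these fits, and ERCC6 was called lower without DMSO replicate 3.

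**Figure D5:**
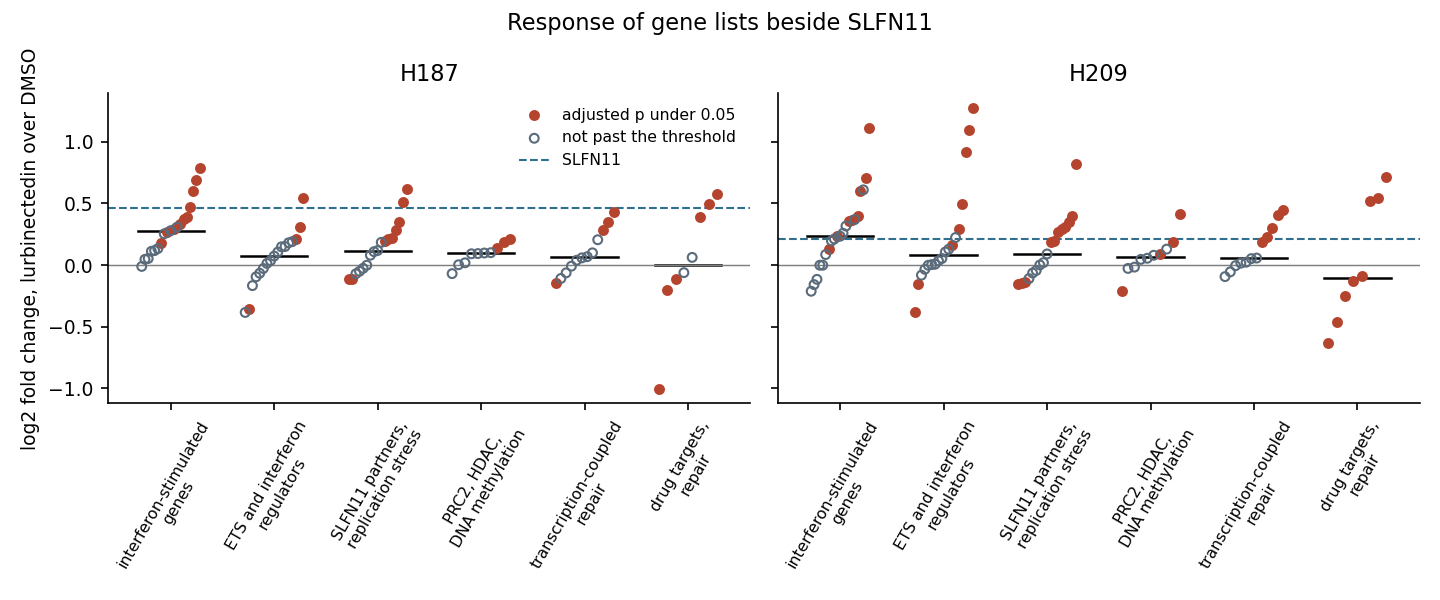
Log2 fold change, lurbinectedin over DMSO, of each tested member of 6 gene lists in H187 (left) and H209 (right), with the median of each list (black bar). Filled points passed an adjusted p of 0.05 and open points did not. The dashed line is SLFN11, at 0.46 in H187 and 0.21 in H209.

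The genes whose levels ran most like SLFN11 were ranked by Pearson's r of log2(CPM + 1) among 11552 genes over 18 libraries. These were the 12 libraries of H187 and H209 and the 6 lurbinectedin libraries of H82 and SHP-77, so each line or group shares its points and r mainly reflects presence against absence. The first 8 protein-coding genes were MT1E, SCNN1G, SOX1, OVOL2, ESRP1, RIPPLY3, KCNA1 and KRT19, with r of 0.999, 0.999, 0.998, 0.998, 0.997, 0.997, 0.997 and 0.997. SLFN5 had r of 0.992 (rank 39), ISL1 0.970 (rank 158) and SLFN13 0.845 (rank 960). A value of at least 0.95 was reached by 264 genes.

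The 8 genes differed in their response to the drug. SOX1, a neural transcription factor, averaged 199 CPM under both conditions in H187, but in H209 331 CPM under lurbinectedin against 387 CPM under DMSO, where it fell by 0.22 on the log2 scale (adjusted p = 2.4e-08). RIPPLY3, a transcriptional repressor, and KCNA1, a potassium channel, also fell in H209, by 0.33 and 0.23. ESRP1, an epithelial splicing factor, rose in H209 by 0.28 (adjusted p = 2.9e-11) and had -0.08 in H187 (adjusted p = 0.14). KRT19, an epithelial keratin, had 0.18 in H187 (adjusted p = 0.0062, and 0.051 without lurbinectedin replicate 2) and 0.12 in H209 (adjusted p = 0.0036, and 0.053 without DMSO replicate 2). MT1E, SCNN1G and OVOL2 passed in neither line.

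Depth was 24226553 to 36415190 counts per library over the line tables. The lines carried neuroendocrine markers: 9 of 10 are listed, CHGA being the exception. Their summed level was 2292 to 2375 CPM under lurbinectedin against 2548 to 2650 CPM under DMSO in H187. In H209 it was 2400 to 2426 CPM under lurbinectedin against 2388 to 2524 CPM under DMSO. ISL1 fell in both lines. Of 9 leukocyte markers, 1 is listed for H187, with 0.511 to 0.761 CPM under lurbinectedin against 0.380 to 0.863 CPM under DMSO. In H209, 3 of 9 are listed, with sums of 3.68 to 4.66 CPM under lurbinectedin against 2.42 to 2.57 CPM under DMSO, and PTPRC and CD3E are not among them. Of these 3, CD68 (0.84, adjusted p = 0.00085) and CD8A (0.85, adjusted p = 0.036) were called higher in H209, CD8A not without DMSO replicate 2, DMSO replicate 3 or lurbinectedin replicate 1 (adjusted p = 0.15, 0.11 and 0.26). Their part in the H209 results was not tested. Of 9 fibroblast and endothelial markers, 3 are listed in each line, and none of these passed.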

How the data were processed

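Reads were aligned with STAR 2.7.10a to hg38 and counted with featureCounts (Subread 2.0.3), with edgeR 4.2.0 named beside them, per the submitters' processing notes. The annotation, strand setting and low-count filter are not given in the sources used here, so reads of a gene and an antisense partner may not be told apart. Libraries were made with the Illumina Stranded Total RNA kit, per the labels' protocols. The authors deposited 5 tables, which list 14023 (H187), 14421 (H209), 13516 (H82), 14190 (SHP-77) and 14463 (class) genes. Per the file headers, these hold raw counts, which the text uses, beside the authors' log2 CPM, their log2 fold change, their signed fold change (a score with no values between -1 and 1) and their p-value and adjusted p-value, used only as an alternative setting. The tables list genes with at least 1 library of 15 counts or more.

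Fits used edgeR 4.0.16 under R 4.3.3: filterByExpr (minimum count 10, minimum total 15), TMM, glmQLFit and glmQLFTest, with Benjamini-Hochberg adjustment over all genes tested and a threshold of 0.05. Each line was fitted on its 6 libraries, H187 and H209 together on 12 for their difference, and the class on its 12 lurbinectedin libraries with a mean per line. Errors of fold changes are standard errors, and 95% intervals use the fit's degrees of freedom. The model was tested on simulated data. CPM use TMM-scaled library sizes of the table named. Symbols, positions and lengths are the files' own, and exons on alternate contigs were left out of positions. Sequences come from RefSeq tables, which hold a promoter for SLFN11, SLFN12 and SLFN12L, and transcripts from GENCODE. Named genes were SLFN symbols, the 8 genes most like SLFN11, genes within 250 kb and up to 4 members per line of each list by smallest p, with a few others given to complete a count. Some genes that this rule names are not reported here. The members, lists and tests were chosen with earlier results of these data known. Alternatives were RLE size factors, other filters, DESeq2 1.42.0, a replicate block, each library left out, abundant non-coding RNAs left out, joint and single-pair fits, the authors' tables and a correction for GC content (lowess, span 0.3) that was added after seeing the data.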

Additional observations from a re-analysis of the deposited data

Results flagged for a closer look

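The response of SLFN11 to lurbinectedin differed between H209 and H187. Its log2 fold change was 0.21 ± 0.03 in H209 and 0.46 ± 0.04 in H187, and the interaction term was -0.25 ± 0.05 (SE, adjusted p = 0.0023, n = 3 per group). With each library left out in turn the term lay between -0.30 and -0.23. The same term for SLFN5 was 0.02 ± 0.07 (adjusted p = 0.91). What underlies the difference was not tested.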

How the results depend on the processing

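The fold changes of SLFN11, SLFN5 and SLFN13 kept their direction where they had passed, and their side of the threshold, in every setting run: 15 for each line's response, 19 for the response difference, 13 for each comparison of H187 with H209 and 25 for the class. Over these settings the log2 fold change of SLFN11 lay between 0.44 and 0.49 in H187, between 0.17 and 0.23 in H209, and between -0.30 and -0.23 for the response difference, whose adjusted p lay between 0.00028 and 0.011. Same-numbered libraries did not deviate together (correlations of -0.18 to -0.05 in H187 and -0.02 to -0.01 in H209, and none of the 12 libraries correlated best with its own number), so the numbers were not taken as pairs. In H187 some differently numbered libraries did. The correlation was 0.22 for DMSO replicate 1 with lurbinectedin replicate 3, 0.19 for 2 with 1 and 0.32 for 3 with 2. The replicate block groups libraries by number, so it does not cover these. With the replicate block SLFN11 had 0.46 in H187 (adjusted p = 8.7e-07), 0.21 in H209 (adjusted p = 7.3e-06) and -0.25 for the difference (adjusted p = 0.0043). H82 minus SHP-77 gave no value, since both were at 0. Of the list, neighbour and like genes that passed, 12 of 43 in H187 and 16 of 63 in H209 lost their call without some library. Of the 8 genes most like SLFN11, 6 were shared with a ranking over 6 group means and 5 with one at a pseudocount of 0.1 CPM. Counts of 0 limit the class values to lower bounds, and with 3 libraries per group p-values describe the spread between these cultures.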

Other observations

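Among the 14463 genes of the class table, 27 (0.187%) had 0 counts in all 6 lurbinectedin libraries of H82 and SHP-77, a rule chosen after the values of SLFN11 were seen. The smallest row sum in the class table was 125 counts, so a gene at 0 in these 6 libraries is listed only through its H187 and H209 counts. The share of 0.187% and the presence of these genes in H187 and H209 thus depend on the listing. Of the 27, 21 were protein coding and 18 reached at least 1 CPM in every H187 and H209 library. SLFN11 was the highest of the 27 by the mean of H187 and H209 and by its lowest library, 92.4 CPM. The next by mean were SLC17A6, a vesicular glutamate transporter, at 46.1 CPM in H187 and 1.95 CPM in H209, and MT1E, a metallothionein, at 16.9 CPM in H187 and 25.7 CPM in H209. SLFN11, MT1E and JHY were the 3 that reached 10 CPM in all 6 ISL1-high libraries. Over H187 and H209 the 27 genes did not run in one order: UBASH3B averaged 7.21 CPM in H187 and 35.2 CPM in H209, while EMX1, a forebrain homeobox factor, averaged 12.1 CPM in H187 and 1.06 CPM in H209.

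SLFNL1-AS1, a non-coding RNA that carries an SLFN symbol but lies on chromosome 1, was listed in all 5 tables. It averaged 3.97 CPM in H187 and 5.77 CPM in H209, against 4.67 CPM in H82 and 1.97 CPM in SHP-77 under lurbinectedin. Its log2 fold change was -0.01 ± 0.19 in H187 (adjusted p = 0.98) and -0.08 ± 0.12 in H209 (adjusted p = 0.63).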
